A study of Mus musculus with 55 samples.

Results

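The genes described here are the translation initiation factor genes of the mouse, taken as every listed gene whose symbol starts with Eif1, Eif2, Eif3, Eif4, Eif5 or Eif6, without Eif4a1 and without pseudogenes. The rule used no measured value, although genes were listed by a TPM filter over asynchronous and post-mitotic samples, not mitotic ones. It gave 48 genes of the 9911 listed for CCNA-GFP cells and the same 48 of the 10237 listed for CTCF-AID cells. Eif2s1, Eif2ak3, Eif4a2, Eif4e3 and Eif3j2 are not analysed here. Translation of most mRNAs begins when eIF2 brings the initiator methionyl-tRNA to the small ribosomal subunit, eIF3, eIF1 and eIF1A hold that subunit open for scanning, and the cap-binding complex eIF4F recruits it to the mRNA. Start codon recognition releases eIF2 with GDP, eIF2B reloads it with GTP, and eIF5B joins the large subunit. Kinases that phosphorylate eIF2 and binding proteins that sequester eIF4E lower the rate of initiation, and embryonic stem cells are known to rely on that control.

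The pre-mRNA of 55 RNA-seq libraries was quantified from E14Tg2a mouse embryonic stem (ES) cells, to follow how transcription resumes after division. CCNA-GFP cells, in which cyclin A fused to GFP reports the cell cycle, were not given IAA and gave 19 libraries: 3 asynchronous, 3 mitotic, 1 at 50 min after release and 2 at each of the times 20, 30, 40, 60, 90 and 120 min. CTCF-AID cells are engineered so that IAA, an auxin, degrades CTCF protein, an insulator and looping factor, and gave 18 libraries without IAA and 18 with 0.5 mM IAA: 3 asynchronous, 3 mitotic and 2 at each of 20, 40, 50, 60, 90 and 120 min in either arm. Mitotic and released cells of both lines had been given 10 µM RO-3306, a CDK1 inhibitor, for 4 h and 50 ng/ml nocodazole for 4 h before shake-off, and IAA was added 2 h before release and kept on. According to the methods, asynchronous cells of the IAA arm were treated for 4 h, so the time with IAA differed between stages. The methods name the CTCF-AID line by an identifier of its own and give none for CCNA-GFP. IAA acts on the protein, so Ctcf RNA checks nothing about the treatment. Values of a stage are always given in the order of replicates 1, 2 and 3 for mitotic and asynchronous cells, 1 and 2 at 20, 40, 60 and 120 min, 1 and 3 at 30, 50 and 90 min, and replicate 3 at 50 min in CCNA-GFP.

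The summed TPM of the listed genes ran from 13746.9 to 42575.8 over the CCNA-GFP libraries and from 17701.5 to 43370.2 over the CTCF-AID libraries, so the sum itself differed with the stage. TPM hold no counts, so the depth is unknown. The methods call the replicates independent. In stage comparisons the p-values rest on the spread left after a shift common to each replicate number is removed. In IAA comparisons without a block they rest on the spread between replicate libraries. In both, the spread is pooled over the stages of a fit. The 48 genes took 0.99 to 1.1% of that sum in CCNA-GFP and 0.915 to 1.17% in CTCF-AID, and no member was at 0 in any library. Of 8 ES cell markers 7 were listed, with Pou5f1 and Nanog among them, and summed to 46.2 to 94.4 TPM in asynchronous CCNA-GFP and 52.5 to 113 TPM in asynchronous CTCF-AID cells. Listed markers of mesoderm, neural, trophoblast and feeder cells summed to at most 3.845 TPM in asynchronous cells, and those of primitive endoderm were not listed. In bulk samples, fewer cells of a type and less RNA per cell cannot be told apart.

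The promoters of the members were read from RefSeq (GRCm38.p6), as the 250 bases before each start. A promoter was found for 39 of the 48 genes, 52 in all, since a gene can have several. Among the letters searched for on both strands, of which none contains another, the E-box CACGTG was in 19.2% of the member promoters and in 6.02% of all 32851 promoters of this length, and the ETS motif CCGGAAG was in 23.1% and 6.91%. CCAAT was in 23.1% of the member promoters and 33.8% of all, the TATA motif TATAAA in 5.77% and 12.4%, the NRF1 motif GCATGCGC in 3.85% and 2.26%, and the YY1 motif AAGATGG in 1.92% and 4.49%. The median GC content was 61.6% in the member promoters and 52.4% in all. These shares are a description of letters and not of bound factors. The promoters of 3 members are shown, because their pre-mRNA behaved differently after mitosis: Eif2b2 and Eif4ebp2 were higher at 60 min in both lines, and Eif4b was higher in CCNA-GFP and not in CTCF-AID. The capitals mark CCAAT, read as ATTGG on the printed strand of Eif2b2, and the ETS motif, read as CTTCCGG, in Eif4ebp2. The Eif4b window holds none of the 6 motifs. Neither does the promoter of Eif5, which was higher at 60 min in both lines. A link between motifs and the change after mitosis was not tested. The windows are chr12:85219231-85219480, + strand, for Eif2b2, chr10:61452670-61452919, - strand, for Eif4ebp2 and chr15:102073523-102073772, + strand, for Eif4b, and all 3 lie outside the annotated exons.
Eif2b2: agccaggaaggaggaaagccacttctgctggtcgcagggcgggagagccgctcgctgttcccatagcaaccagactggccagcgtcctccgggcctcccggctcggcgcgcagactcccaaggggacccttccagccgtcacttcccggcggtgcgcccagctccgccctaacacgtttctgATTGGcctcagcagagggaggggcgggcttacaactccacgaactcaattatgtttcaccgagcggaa
Eif4ebp2: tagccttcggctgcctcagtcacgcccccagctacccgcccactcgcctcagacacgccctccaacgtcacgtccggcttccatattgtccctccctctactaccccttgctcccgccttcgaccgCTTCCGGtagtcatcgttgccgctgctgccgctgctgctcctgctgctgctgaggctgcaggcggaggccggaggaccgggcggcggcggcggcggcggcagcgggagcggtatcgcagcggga
Eif4b: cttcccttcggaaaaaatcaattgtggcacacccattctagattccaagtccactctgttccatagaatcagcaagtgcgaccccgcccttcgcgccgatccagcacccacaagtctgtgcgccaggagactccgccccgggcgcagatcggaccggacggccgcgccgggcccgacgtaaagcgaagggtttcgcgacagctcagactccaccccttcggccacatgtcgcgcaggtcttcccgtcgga

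Pre-mRNA of most initiation factor genes was higher at 60 min after release than in mitosis, in both lines. In CCNA-GFP, 45 of 48 members were called higher at 60 min and 1 lower by limma at an adjusted p of 0.05, where 88.3% of all genes were called higher and 0.515% lower. In CTCF-AID without IAA, 42 were higher and 2 lower, where 84.2% of all genes were called higher and 2.36% lower. The median log2 fold change of the members was 1.06 in CCNA-GFP, against 0.79 over all genes, and 0.68 in CTCF-AID, against 0.64. These folds are on the log2(TPM + 1) scale, which understates the change of low genes. The members ran from -0.32 (Eif4g3) to 1.80 (Eif4g2) in CCNA-GFP and from -0.76 (Eif4g3) to 1.61 (Eif2b4) in CTCF-AID. Over the 48 genes the log2 fold changes of the lines had a Pearson r of 0.901 and a Spearman rho of 0.864, against 0.866 and 0.862 over the 9574 genes listed in both, which is a description across genes.

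**Figure D1:**
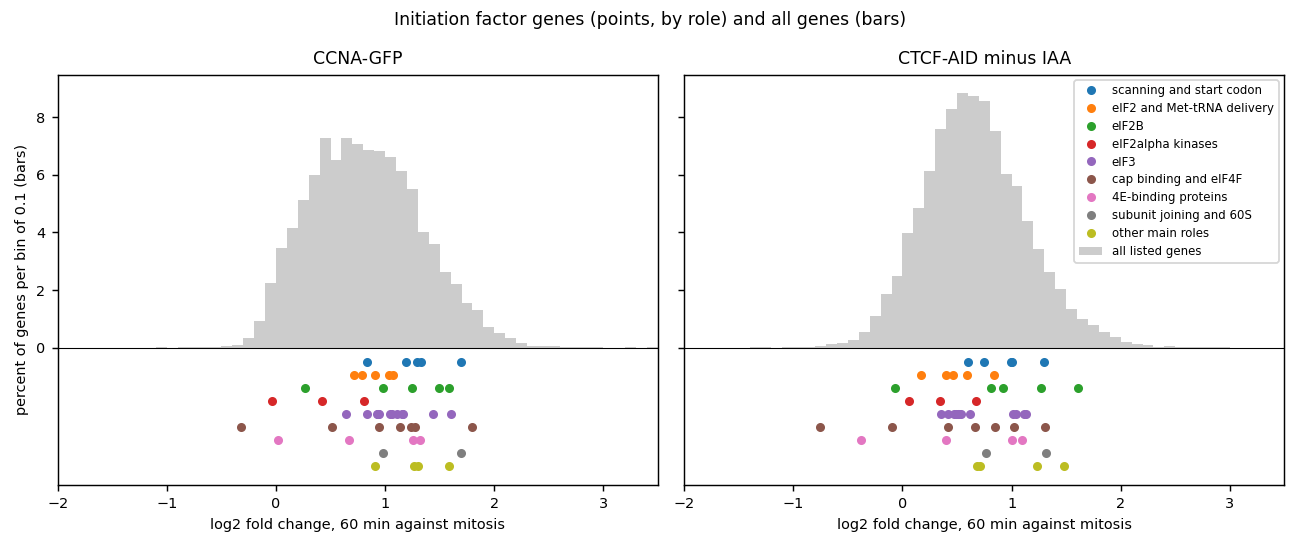
Log2 fold change of pre-mRNA from mitosis to 60 min on the log2(TPM + 1) scale (x axis) for all listed genes (histogram, percent of genes) and for the 48 members (points below the bars, by role), in CCNA-GFP and CTCF-AID without IAA. The member medians are 1.06 and 0.68, the medians of all genes 0.79 and 0.64, and Eif4g3 is the lowest member in both lines.

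The first members passed the test at 40 min. At 20 min limma called 0 of 48 in either line, where 0% of all genes were called, and at an unadjusted p of 0.05 it called 0 members in CCNA-GFP, where 2.55% of all genes were, and 4 in CTCF-AID (Eif1b, Eif3i, Eif4g2 and Eif5), where 3.43% were. At 30 min in CCNA-GFP 0 members were called, where 0.303% of all genes were, and 6 had an unadjusted p under 0.05 (Eif1, Eif2b2, Eif2b4, Eif4g2, Eif5 and Eif5a2), where 11.5% of all genes had. At 40 min 26 members were higher in CCNA-GFP, where 49.3% of all genes were, and 30 in CTCF-AID, where 62.4% were. Of these, 25 were called in both lines, 96.2% of the CCNA-GFP list and 83.3% of the CTCF-AID list. For the next counts, from fits without a replicate or the block, shares of all genes are not given. The CCNA-GFP count at 40 min was 12 without replicate 1 and 11 without the replicate block, and the CTCF-AID count was 18 and 14. With every library scaled to the same summed TPM, 11 members were higher and 18 lower at 40 min in CCNA-GFP, where 23.7% and 31.3% of all genes were, and 13 and 25 in CTCF-AID, where 31.8% and 34.2% were. At 50 min in CTCF-AID 41 members were higher, where 78.1% of all genes were.

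After 60 min the lines were counted apart. In CCNA-GFP the members above mitosis numbered 46 at 90 min and 46 at 120 min, where 89.1% and 90.2% of all genes were, and 33 in asynchronous cells, where 70.4% were. In CTCF-AID 27 were higher at 90 min and 27 at 120 min, where 71.9% and 68.1% of all genes were, and 7 in asynchronous cells, where 30.7% were. The CTCF-AID counts were 14 at 90 min without replicate 3, 16 at 120 min without replicate 2, and 1 and 0 in asynchronous cells without replicate 1 and without replicate 3. Asynchronous CTCF-AID cells held 8 members lower than mitotic cells (Eif2b3, Eif2s3x, Eif3b, Eif3c, Eif3j1, Eif4a3, Eif4b and Eif4g3), 4.48% of all genes being lower there. That count rested on the scaling and on single replicates. It was 19 at the same summed TPM, where 18.9% of all genes were lower and 23.9% higher. With each library divided by its factor it was 0 by limma, where 1.21% of all genes were lower and 62.7% higher. The factor of a library is its step, the smallest spacing of its values, over 0.01. In that fit 0 members were lower at an unadjusted p of 0.05. On the deposited scale the count was 0 without replicate 1, 4 without replicate 2, 4 without replicate 3 and 0 without the block. Shares of all genes in the fits without a replicate or the block are not given here. The difference between the lines was not tested, because the tables were normalised separately. The stage of the highest mean was 90 min for 25 members in CCNA-GFP and 50 min, from its 1 library, for 13, where 37.1% and 21.7% of all genes had their highest mean. In CTCF-AID it was 50 min for 30 members, where it was 48.1% of all genes, and 60 min for 9. These means come from unlike replicates, since 60 min holds replicates 1 and 2 and 90 min replicates 1 and 3. In CCNA-GFP replicate 1, which has both stages, the summed TPM of the members was 448 at 60 min and 361 at 90 min. In replicate 1 of CTCF-AID without IAA that sum was 407 at 50 min and 387 at 60 min.

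**Figure D2:**
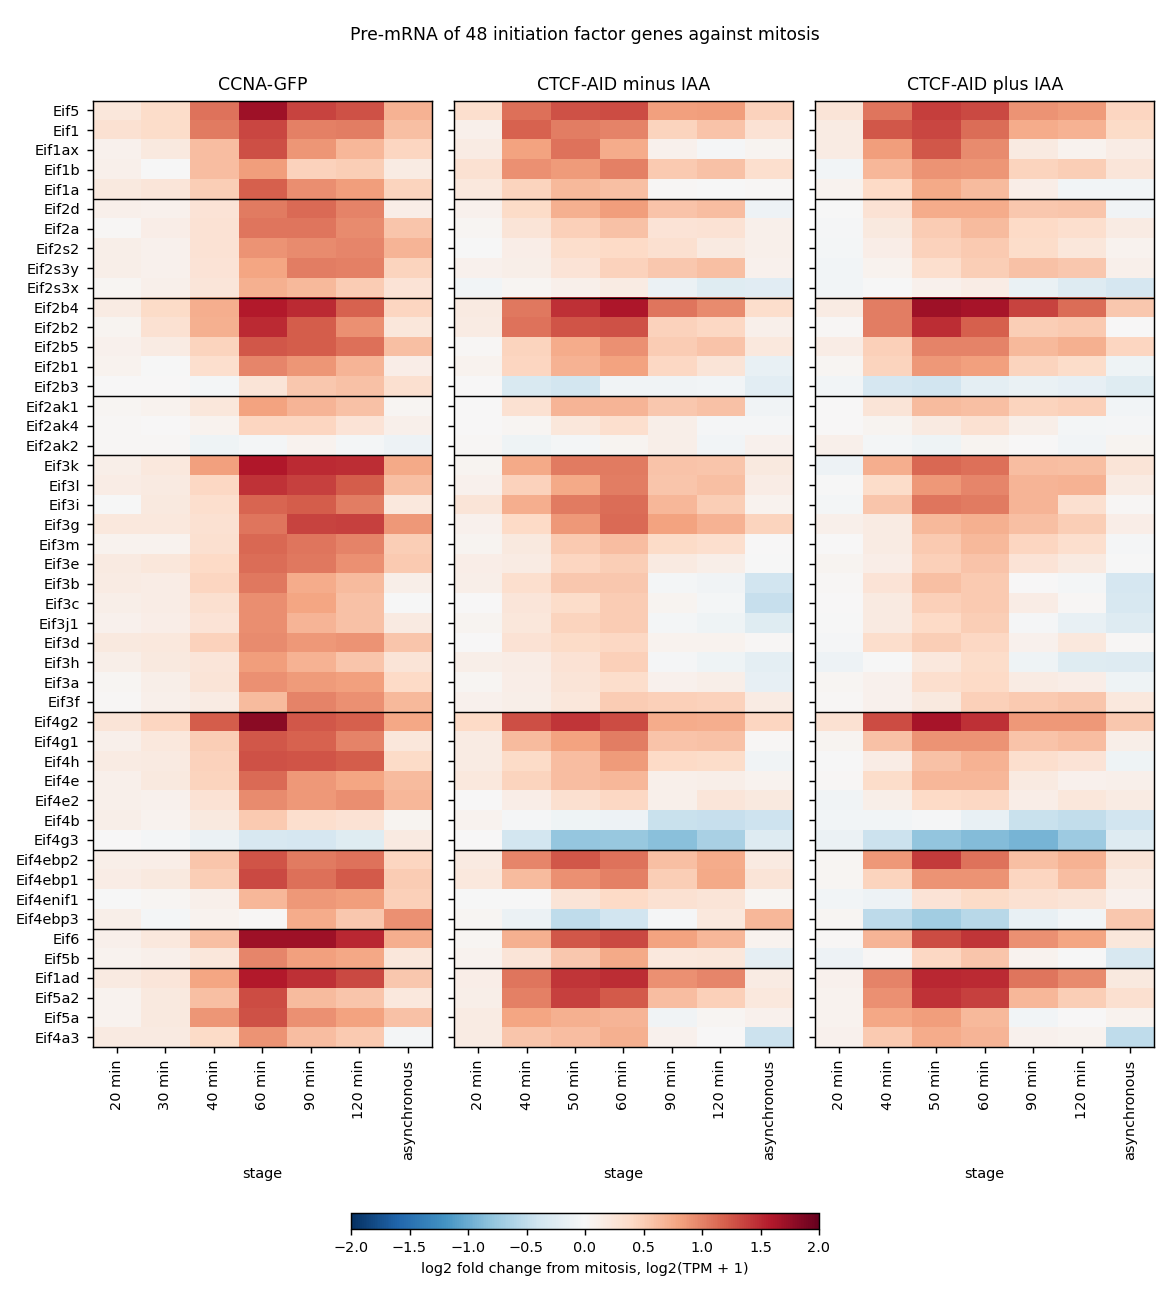
Log2 fold change from mitosis on the log2(TPM + 1) scale (colour, red higher and blue lower) of the 48 members (rows, in role groups divided by lines) at each stage (columns) in CCNA-GFP and in CTCF-AID without and with IAA. At 60 min 45, 42 and 42 members were called higher, and Eif4g3 is blue from 40 min to 120 min in all 3 panels.

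Scaling every library to the same summed TPM moved the median log2 fold change of all genes at 60 min from 0.79 to 0.02 in CCNA-GFP and from 0.64 to 0.06 in CTCF-AID, so values at the same total say how a gene moved relative to the rest of the table. At the same total 13 members were higher and 16 lower at 60 min in CCNA-GFP, where 36.4% of all genes were higher and 33.3% lower. In CTCF-AID 15 were higher and 24 lower, where 37.9% and 29.5% of all genes were. The member medians there were 0.00 and -0.15. The lines shared 12 of the higher genes (Eif1ad, Eif1b, Eif2ak1, Eif2b2, Eif2b4, Eif2b5, Eif3k, Eif3l, Eif4g2, Eif5, Eif5a2 and Eif6), 92.3% of the CCNA-GFP list and 80% of the CTCF-AID list. They shared 16 of the lower genes, all those of CCNA-GFP and 66.7% of those of CTCF-AID, among them the eIF2 subunit genes Eif2s2, Eif2s3x and Eif2s3y and the eIF3 subunit genes Eif3a, Eif3c, Eif3f, Eif3h and Eif3j1.

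The genes of scanning and start codon choice were called higher at 40 min (49.3% of all genes in CCNA-GFP and 62.4% in CTCF-AID) and at 60 min (88.3% and 84.2%) in 5 of 5 cases in both lines, with a median log2 fold change at 60 min of 1.29 in CCNA-GFP and 0.99 in CTCF-AID. Eif5 encodes the GTPase-activating protein of eIF2 (chromosome 12, 111538016 to 111546752, + strand, GRCm38). In CCNA-GFP, Eif5 stood at 6.24, 6.54 and 7.14 TPM in mitosis, 8.52 and 6.55 at 20 min, 10.1 and 8.57 at 30 min, 16 and 12.8 at 40 min, 25.9 at 50 min, 25.1 and 20.0 at 60 min, 18.2 and 20.9 at 90 min, 15.6 and 17.5 at 120 min and 9.49, 10.1 and 15.2 in asynchronous cells. Eif5 stood in CTCF-AID without IAA at 8.44, 7.32 and 8.0 TPM in mitosis, 11.3 and 8.25 at 20 min, 18.2 and 16.1 at 40 min, 20.8 and 22.1 at 50 min, 19.9 and 19.6 at 60 min, 14 and 17.2 at 90 min, 12.8 and 15.2 at 120 min and 10.6, 9.62 and 14.1 in asynchronous cells. From 40 min on every library of both lines lay above every mitotic library of its line. Eif5 differed at 60 min from mitosis by 1.69 (standard error 0.16, limma adjusted p = 5.48e-09) in CCNA-GFP and by 1.30 (standard error 0.14, limma adjusted p = 8.79e-07) in CTCF-AID, and by 0.44 and 0.37 at the same total. Eif1 encodes the factor that guards against initiation at wrong codons (chromosome 11, 100319885 to 100322096, + strand). In CCNA-GFP, Eif1 stood at 12.5, 9.9 and 11.3 TPM in mitosis, 17 and 10.6 at 20 min, 17.5 and 14.2 at 30 min, 26.7 and 20.2 at 40 min, 31.3 at 50 min, 33.7 and 24.1 at 60 min, 24.6 and 26 at 90 min, 22.3 and 23.7 at 120 min and 15.5, 15.8 and 22.1 in asynchronous cells. Eif1 stood in CTCF-AID without IAA at 19.1, 12 and 16.2 TPM in mitosis, 19.8 and 13.2 at 20 min, 39.5 and 31.4 at 40 min, 36.3 and 32.2 at 50 min, 30.6 and 31.3 at 60 min, 21.9 and 23.1 at 90 min, 20.9 and 24.8 at 120 min and 17.3, 18.7 and 21.5 in asynchronous cells. From 40 to 120 min the groups did not overlap mitosis in either line, and asynchronous CTCF-AID cells overlapped mitotic ones. Eif1 differed at 60 min from mitosis by 1.33 (standard error 0.16, limma adjusted p = 1.58e-07) in CCNA-GFP and by 0.99 (standard error 0.18, limma adjusted p = 9.77e-05) in CTCF-AID, and by 0.04 and 0.04 at the same total.

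Eif1b, the close copy of Eif1, was listed far lower than it, on the TPM scale, which is per length. In CCNA-GFP, Eif1b stood at 0.314, 0.332 and 0.45 TPM in mitosis, 0.664 and 0.239 at 20 min, 0.509 and 0.32 at 30 min, 1.29 and 0.833 at 40 min, 1.06 at 50 min, 1.56 and 1.24 at 60 min, 0.937 and 0.984 at 90 min, 0.881 and 0.907 at 120 min and 0.522, 0.461 and 0.61 in asynchronous cells. Eif1b stood in CTCF-AID without IAA at 0.37, 0.342 and 0.233 TPM in mitosis, 0.677 and 0.469 at 20 min, 1.27 and 1.55 at 40 min, 0.922 and 1.98 at 50 min, 1.44 and 1.66 at 60 min, 0.833 and 0.974 at 90 min, 0.821 and 0.978 at 120 min and 0.688, 0.521 and 0.755 in asynchronous cells. All libraries from 40 min on lay above the mitotic ones of their line. Eif1b had a 60 min log2 fold change of 0.84 in CCNA-GFP and 1.00 in CTCF-AID, and of 0.28 and 0.58 at the same total. Eif1a encodes a form of eIF1A, the factor that binds the decoding site with eIF1. In CCNA-GFP, Eif1a stood at 6.93, 7.61 and 9.17 TPM in mitosis, 8.59 and 8.53 at 20 min, 9.31 and 10.4 at 30 min, 11.2 and 10.2 at 40 min, 17.5 at 50 min, 20.4 and 15.9 at 60 min, 16.1 and 17 at 90 min, 13.5 and 14.3 at 120 min and 9.72, 10.2 and 13.6 in asynchronous cells. Eif1a stood in CTCF-AID without IAA at 8.05, 8.01 and 9.01 TPM in mitosis, 10.0 and 8.46 at 20 min, 11.6 and 10.5 at 40 min, 13.7 and 14.5 at 50 min, 12.1 and 12.7 at 60 min, 7.69 and 9.92 at 90 min, 6.78 and 8.92 at 120 min and 7.94, 7.45 and 10.4 in asynchronous cells. It stood above mitosis from 40 to 120 min in CCNA-GFP and from 40 to 60 min in CTCF-AID, where the 120 min libraries lay below or within the mitotic range. Eif1a had a 60 min log2 fold change of 1.19 in CCNA-GFP and 0.60 in CTCF-AID, and of -0.06 and -0.31 at the same total. Its 60 min difference thus had the other sign at the same total in both lines. Eif1ax, the X-linked gene of eIF1A, was also called higher at 40 and 60 min in both lines.

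The genes of eIF2 and of methionyl-tRNA delivery were higher at 60 min in 5 of 5 cases in CCNA-GFP (median 0.90) and 4 of 5 in CTCF-AID (median 0.47), and at 40 min in 0 and 1 of 5. Of all genes 88.3% and 84.2% were higher at 60 min, and 49.3% and 62.4% at 40 min. At the same total 0 of 5 were higher at 60 min, where 36.4% and 37.9% of all genes were, and 3 and 4 were lower, where 33.3% and 29.5% were. Eif2d encodes a factor that can deliver the initiator tRNA without GTP (chromosome 1, 131153181 to 131187658, + strand). In CCNA-GFP, Eif2d stood at 3.59, 3.69 and 4.36 TPM in mitosis, 3.88 and 3.91 at 20 min, 4.45 and 4.45 at 30 min, 4.71 and 4.28 at 40 min, 8.04 at 50 min, 9.86 and 7.04 at 60 min, 9.12 and 11.4 at 90 min, 8.0 and 8.23 at 120 min and 3.89, 3.76 and 5.64 in asynchronous cells. Eif2d stood in CTCF-AID without IAA at 6.48, 5.2 and 7.2 TPM in mitosis, 7.05 and 5.06 at 20 min, 8.46 and 6.8 at 40 min, 11.3 and 12.5 at 50 min, 11.3 and 10.4 at 60 min, 8.87 and 12.8 at 90 min, 9.15 and 9.14 at 120 min and 5.8, 4.34 and 7.36 in asynchronous cells. From 50 to 120 min all libraries lay above mitosis in both lines, and asynchronous libraries overlapped the mitotic ones. Eif2d differed at 60 min from mitosis by 1.03 (standard error 0.13, limma adjusted p = 4.42e-07) in CCNA-GFP and by 0.84 (standard error 0.11, limma adjusted p = 8.75e-06) in CTCF-AID, and by -0.13 and -0.05 at the same total.

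Eif2s3x and Eif2s3y encode the gamma subunit of eIF2 from the X and the Y chromosome (chromosome X, 94188707 to 94212862, - strand, and chromosome Y, 1010543 to 1028847, + strand). They are close copies, and how reads that match both were divided was not tested. In CCNA-GFP, Eif2s3x stood at 2.54, 2.06 and 2.76 TPM in mitosis, 2.55 and 2.19 at 20 min, 2.83 and 2.98 at 30 min, 3.1 and 2.59 at 40 min, 4.57 at 50 min, 5.06 and 3.71 at 60 min, 4.43 and 4.97 at 90 min, 3.63 and 3.63 at 120 min and 2.81, 2.81 and 3.89 in asynchronous cells. Eif2s3x stood in CTCF-AID without IAA at 3.89, 2.93 and 4.3 TPM in mitosis, 3.75 and 2.79 at 20 min, 3.8 and 3.29 at 40 min, 4.22 and 4.42 at 50 min, 4.07 and 3.82 at 60 min, 3.2 and 3.92 at 90 min, 2.65 and 2.77 at 120 min and 2.9, 2.56 and 3.59 in asynchronous cells. In CCNA-GFP the libraries from 50 to 120 min lay above mitosis, and in CTCF-AID the 60 min libraries lay within the mitotic range and the 120 min libraries below it. Eif2s3x differed at 60 min from mitosis by 0.71 (standard error 0.11, limma adjusted p = 7.46e-06) in CCNA-GFP and by 0.17 (standard error 0.09, limma adjusted p = 0.106) in CTCF-AID, and by -0.33 and -0.62 at the same total. Against mitosis Eif2s3x differed at 120 min in CTCF-AID by -0.25 (standard error 0.09, limma adjusted p = 0.0307), which passed the test. In CCNA-GFP, Eif2s3y stood at 4.42, 5.18 and 5.37 TPM in mitosis, 5.14 and 5.25 at 20 min, 5.09 and 5.94 at 30 min, 5.62 and 6.2 at 40 min, 7.64 at 50 min, 10.6 and 7.35 at 60 min, 10.8 and 12.1 at 90 min, 10.4 and 10.5 at 120 min and 6.27, 6.84 and 8.43 in asynchronous cells. Eif2s3y stood in CTCF-AID without IAA at 4.07, 3.78 and 5.57 TPM in mitosis, 4.69 and 3.8 at 20 min, 4.47 and 4.17 at 40 min, 5.56 and 6.37 at 50 min, 6.21 and 5.43 at 60 min, 5.83 and 9.13 at 90 min, 5.86 and 7.07 at 120 min and 4.33, 4.11 and 6.0 in asynchronous cells. The 90 and 120 min libraries lay above every mitotic library in both lines, and the 60 min libraries did so in CCNA-GFP only. Eif2s3y had a 60 min log2 fold change of 0.79 in CCNA-GFP and 0.47 in CTCF-AID, and of -0.40 and -0.37 at the same total.

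The eIF2B genes, which encode the exchange factor of eIF2, were higher at 60 min in 5 of 5 cases in CCNA-GFP (median 1.24) and 4 of 5 in CTCF-AID (median 0.92). Of all genes 88.3% and 84.2% were higher there. Eif2b4, the delta subunit, had the largest 60 min log2 fold change of the members in CTCF-AID (chromosome 5, 31187558 to 31193430, - strand). In CCNA-GFP, Eif2b4 stood at 0.836, 0.731 and 0.815 TPM in mitosis, 1.15 and 0.716 at 20 min, 1.46 and 1.36 at 30 min, 2.13 and 1.57 at 40 min, 3.89 at 50 min, 4.45 and 3.92 at 60 min, 3.53 and 5.03 at 90 min, 2.61 and 3.19 at 120 min and 1.19, 1.38 and 1.71 in asynchronous cells. Eif2b4 stood in CTCF-AID without IAA at 1.11, 0.928 and 0.88 TPM in mitosis, 1.2 and 1.03 at 20 min, 3.05 and 2.7 at 40 min, 4.15 and 4.97 at 50 min, 4.52 and 4.92 at 60 min, 2.48 and 4.19 at 90 min, 2.28 and 2.93 at 120 min and 1.34, 1.35 and 1.92 in asynchronous cells. All libraries from 40 min on, asynchronous ones included, lay above the mitotic libraries of their line. Eif2b4 differed at 60 min from mitosis by 1.59 (standard error 0.13, limma adjusted p = 9.09e-10) in CCNA-GFP and by 1.61 (standard error 0.13, limma adjusted p = 1.28e-07) in CTCF-AID, and by 0.74 and 0.95 at the same total. Eif2b2, the beta subunit, rose at 60 min by 1.5 (standard error 0.11, limma adjusted p = 2.97e-10) and 1.27.

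Eif2b3, the gamma subunit of the same complex, was the exception (chromosome 4, 117019402 to 117087306, + strand). In CCNA-GFP, Eif2b3 stood at 1.32, 1.06 and 1.69 TPM in mitosis, 1.26 and 1.13 at 20 min, 1.4 and 1.7 at 30 min, 1.26 and 0.972 at 40 min, 1.64 at 50 min, 2.13 and 1.17 at 60 min, 2.56 and 2.79 at 90 min, 2.53 and 2.03 at 120 min and 1.68, 1.52 and 2.7 in asynchronous cells. Eif2b3 stood in CTCF-AID without IAA at 2.52, 2.1 and 3.36 TPM in mitosis, 2.66 and 2.02 at 20 min, 1.83 and 1.52 at 40 min, 1.98 and 2.18 at 50 min, 2.52 and 1.8 at 60 min, 2.32 and 3.26 at 90 min, 2.28 and 2.07 at 120 min and 2.01, 1.52 and 3.02 in asynchronous cells. In CCNA-GFP only the 90 and 120 min libraries lay above all mitotic ones, and in CTCF-AID the 40 min libraries lay below all mitotic ones. Eif2b3 differed at 60 min from mitosis by 0.26 (standard error 0.11, limma adjusted p = 0.0292) in CCNA-GFP and by -0.07 (standard error 0.09, limma adjusted p = 0.463) in CTCF-AID, and by -0.57 and -0.77 at the same total. The 60 min call in CCNA-GFP was lost without replicate 1 or 3. In CTCF-AID Eif2b3 was lower than in mitosis at 40 min, by -0.30 (standard error 0.09, limma adjusted p = 0.00716), at 50 min, by -0.36, and in asynchronous cells, by -0.22, the last call being lost without any 1 of the replicates.

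Of the kinases of eIF2, 2 of 3 were higher at 60 min in each line (88.3% and 84.2% of all genes), with medians of 0.42 and 0.34. Eif2ak1 encodes the heme-regulated kinase (chromosome 5, 143817788 to 143904251, + strand), and overlaps Aimp2 and Ankrd61 on the other strand. In CCNA-GFP, Eif2ak1 stood at 0.627, 0.365 and 0.675 TPM in mitosis, 0.664 and 0.369 at 20 min, 0.731 and 0.746 at 30 min, 0.871 and 0.579 at 40 min, 1.56 at 50 min, 2.09 and 1.13 at 60 min, 1.48 and 1.86 at 90 min, 1.32 and 1.09 at 120 min and 0.493, 0.507 and 0.814 in asynchronous cells. Eif2ak1 stood in CTCF-AID without IAA at 0.631, 0.464 and 0.725 TPM in mitosis, 0.655 and 0.445 at 20 min, 1.0 and 0.785 at 40 min, 1.57 and 1.85 at 50 min, 1.57 and 1.34 at 60 min, 1.25 and 1.66 at 90 min, 1.51 and 1.12 at 120 min and 0.558, 0.434 and 0.604 in asynchronous cells. From 60 to 120 min its libraries lay above all mitotic ones in both lines, and asynchronous libraries overlapped mitotic ones. Eif2ak1 had a 60 min log2 fold change of 0.80 in CCNA-GFP and 0.68 in CTCF-AID, and of 0.16 and 0.21 at the same total. Eif2ak2 encodes PKR, the kinase activated by double-stranded RNA. In CCNA-GFP, Eif2ak2 stood at 0.836, 0.332 and 0.928 TPM in mitosis, 0.873 and 0.369 at 20 min, 0.827 and 0.905 at 30 min, 0.646 and 0.324 at 40 min, 0.714 at 50 min, 0.685 and 0.389 at 60 min, 0.793 and 1.04 at 90 min, 0.661 and 0.407 at 120 min and 0.522, 0.415 and 0.756 in asynchronous cells. Eif2ak2 stood in CTCF-AID without IAA at 0.979, 0.586 and 1.24 TPM in mitosis, 1.03 and 0.562 at 20 min, 0.807 and 0.515 at 40 min, 0.899 and 1.2 at 50 min, 1.06 and 0.609 at 60 min, 0.964 and 1.63 at 90 min, 0.821 and 0.559 at 120 min and 0.911, 0.826 and 1.42 in asynchronous cells. Stages overlapped throughout, and replicate 2 was the lowest library of every stage that has one. Eif2ak2 differed at 60 min from mitosis by -0.04 (standard error 0.08, limma adjusted p = 0.654) in CCNA-GFP and by 0.06 (standard error 0.08, limma adjusted p = 0.501) in CTCF-AID, and by -0.56 and -0.41 at the same total.

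The eIF3 genes encode the scaffold on the small subunit. All 13 were higher at 60 min in both lines (88.3% and 84.2% of all genes), with medians of 1.05 in CCNA-GFP and 0.51 in CTCF-AID, and 6 and 7 of them at 40 min, shares near those of all genes at 40 min (49.3% and 62.4%). At the same total 2 were higher and 5 lower at 60 min in CCNA-GFP, where 36.4% and 33.3% of all genes were. In CTCF-AID 4 were higher and 9 lower, where 37.9% and 29.5% of all genes were. Eif3k, a peripheral subunit, had the largest 60 min change of the group in CCNA-GFP and in the mean of both lines (chromosome 7, 28971372 to 28981864, - strand). In CTCF-AID Eif3g and Eif3i had larger log2 fold changes, of 1.14 and 1.11. In CCNA-GFP, Eif3k stood at 2.65, 2.26 and 3.8 TPM in mitosis, 3.0 and 2.5 at 20 min, 3.62 and 4.21 at 30 min, 6.07 and 4.26 at 40 min, 11.8 at 50 min, 11.5 and 7.88 at 60 min, 9.88 and 12.1 at 90 min, 8.66 and 8.6 at 120 min and 5.02, 4.35 and 7.62 in asynchronous cells. Eif3k stood in CTCF-AID without IAA at 4.81, 3.12 and 4.74 TPM in mitosis, 5.06 and 3.05 at 20 min, 8.46 and 5.91 at 40 min, 10.5 and 10.9 at 50 min, 9.15 and 8.5 at 60 min, 6.53 and 8.45 at 90 min, 5.95 and 6.09 at 120 min and 5.22, 3.58 and 6.34 in asynchronous cells. From 40 to 120 min the libraries did not overlap mitosis in either line. Eif3k differed at 60 min from mitosis by 1.61 (standard error 0.13, limma adjusted p = 8.82e-10) in CCNA-GFP and by 1.05 (standard error 0.13, limma adjusted p = 5.07e-06) in CTCF-AID, and by 0.48 and 0.19 at the same total. Eif3f had the smallest mean change of the group over both lines (chromosome 7, 108934417 to 108942951, + strand). In CCNA-GFP, Eif3f stood at 1.57, 1.66 and 1.88 TPM in mitosis, 1.54 and 1.8 at 20 min, 2.0 and 1.94 at 30 min, 2.1 and 1.78 at 40 min, 2.8 at 50 min, 3.73 and 2.55 at 60 min, 4.43 and 4.54 at 90 min, 4.15 and 3.78 at 120 min and 2.7, 3.41 and 3.72 in asynchronous cells. Eif3f stood in CTCF-AID without IAA at 3.44, 2.76 and 3.57 TPM in mitosis, 3.73 and 2.84 at 20 min, 3.53 and 3.17 at 40 min, 4.1 and 4.24 at 50 min, 4.9 and 4.5 at 60 min, 4.25 and 6.16 at 90 min, 3.83 and 5.31 at 120 min and 3.22, 3.58 and 4.57 in asynchronous cells. Its highest mean was at 90 min in both lines. In CTCF-AID without IAA, however, replicate 1, the only replicate with both stages, stood at 4.9 at 60 min and 4.25 at 90 min. From 50 to 120 min no library of Eif3f overlapped mitosis. Eif3f had a 60 min log2 fold change of 0.64 in CCNA-GFP and 0.51 in CTCF-AID, and of -0.32 and -0.29 at the same total.

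**Figure D3:**
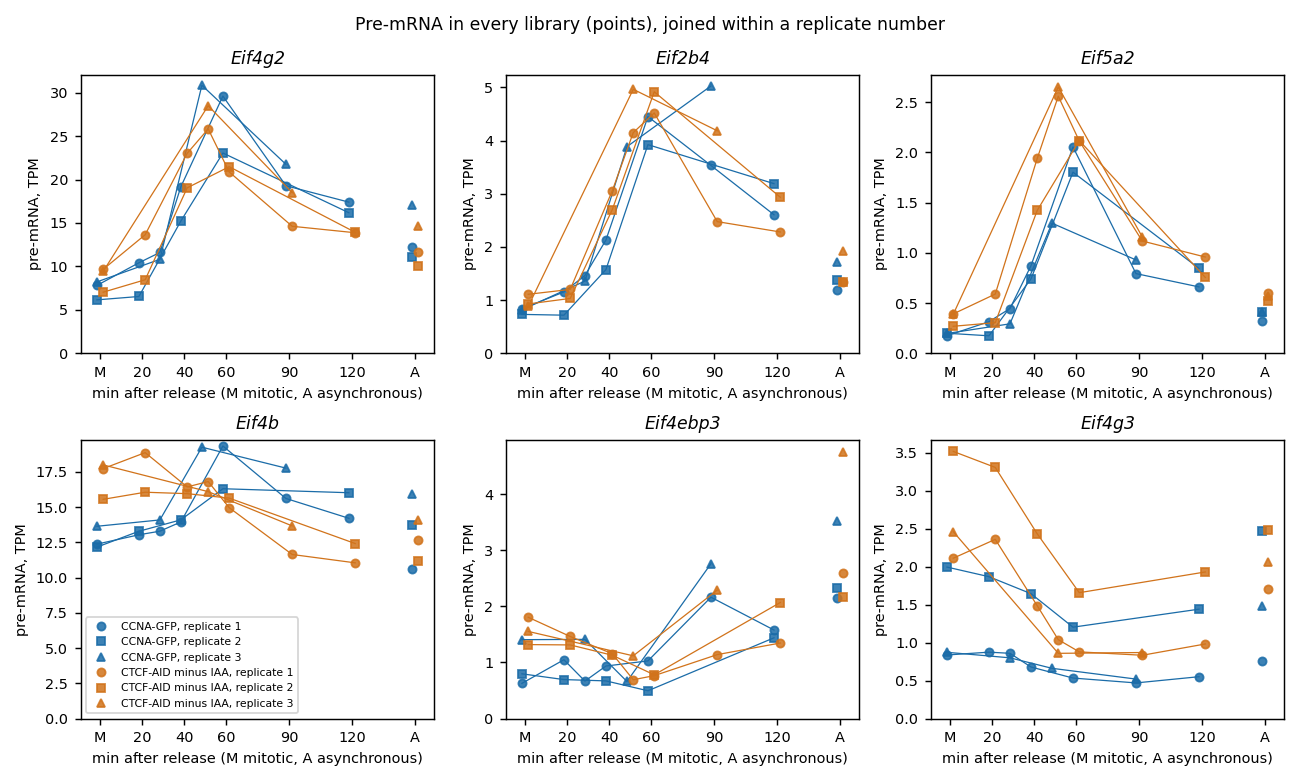
Pre-mRNA TPM (y axes, each from 0) in every library of 6 members by minutes after release, with mitotic (M) and asynchronous (A) cells, for CCNA-GFP (blue) and CTCF-AID without IAA (orange), lines joining released libraries of a replicate number. Eif4g2, Eif2b4 and Eif5a2 peak between 50 and 90 min, Eif4g3 lies below its own mitotic library in each replicate at 60 min, and its replicate 2 libraries lie above the others.

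Cap-binding and eIF4F genes held the largest rise of the members in CCNA-GFP and the largest fall in both lines. At 60 min 6 of 7 were higher and 1 lower in CCNA-GFP, where 88.3% and 0.515% of all genes were. In CTCF-AID 5 were higher and 1 lower, where 84.2% and 2.36% of all genes were. Eif4g2 encodes DAP5, a relative of the eIF4G scaffold that lacks the eIF4E site (chromosome 7, 111067750 to 111083030, - strand). In CCNA-GFP, Eif4g2 stood at 7.8, 6.14 and 8.21 TPM in mitosis, 10.4 and 6.53 at 20 min, 11.6 and 10.8 at 30 min, 19.2 and 15.2 at 40 min, 30.9 at 50 min, 29.6 and 23.1 at 60 min, 19.3 and 21.8 at 90 min, 17.4 and 16.2 at 120 min and 12.2, 11.1 and 17.1 in asynchronous cells. Eif4g2 stood in CTCF-AID without IAA at 9.66, 7.03 and 9.42 TPM in mitosis, 13.6 and 8.46 at 20 min, 23 and 19 at 40 min, 25.8 and 28.5 at 50 min, 20.9 and 21.5 at 60 min, 14.6 and 18.5 at 90 min, 13.9 and 13.9 at 120 min and 11.6, 10.1 and 14.7 in asynchronous cells. From 40 min on, asynchronous cells included, no library overlapped mitosis in either line. Eif4g2 differed at 60 min from mitosis by 1.80 (standard error 0.14, limma adjusted p = 4.12e-10) in CCNA-GFP and by 1.31 (standard error 0.14, limma adjusted p = 9.38e-07) in CTCF-AID, and by 0.54 and 0.38 at the same total. That is a 3.48-fold and 2.48-fold difference in TPM + 1. Eif4e encodes the cap-binding protein (chromosome 3, 138526179 to 138559696, + strand). In CCNA-GFP, Eif4e stood at 2.86, 2.92 and 3.77 TPM in mitosis, 3.32 and 2.93 at 20 min, 3.91 and 4.21 at 30 min, 4.33 and 4.17 at 40 min, 7.03 at 50 min, 8.68 and 6.43 at 60 min, 6.34 and 7.73 at 90 min, 5.72 and 5.63 at 120 min and 4.7, 4.68 and 7.24 in asynchronous cells. Eif4e stood in CTCF-AID without IAA at 4.96, 5.0 and 6.16 TPM in mitosis, 6.44 and 5.27 at 20 min, 7.16 and 6.99 at 40 min, 8.74 and 9.46 at 50 min, 7.87 and 8.94 at 60 min, 5.11 and 7.11 at 90 min, 4.91 and 6.01 at 120 min and 5.32, 4.89 and 7.04 in asynchronous cells. In CCNA-GFP all libraries from 30 min on lay above mitosis, and in CTCF-AID those from 40 to 60 min did. Eif4e had a 60 min log2 fold change of 1.14 in CCNA-GFP and 0.66 in CTCF-AID, and of 0.01 and -0.21 at the same total. Eif4e2 encodes a cap-binding relative known to repress translation (chromosome 1, 87213914 to 87240488, + strand). In CCNA-GFP, Eif4e2 stood at 3.24, 2.56 and 4.1 TPM in mitosis, 3.77 and 2.69 at 20 min, 3.91 and 4.1 at 30 min, 4.52 and 3.12 at 40 min, 6.48 at 50 min, 8.26 and 5.09 at 60 min, 7.46 and 7.76 at 90 min, 6.75 and 6.13 at 120 min and 5.69, 4.26 and 7.67 in asynchronous cells. Eif4e2 stood in CTCF-AID without IAA at 6.92, 5.76 and 8.62 TPM in mitosis, 7.55 and 5.25 at 20 min, 7.74 and 6.28 at 40 min, 9.36 and 10.8 at 50 min, 9.58 and 7.91 at 60 min, 7.63 and 9.37 at 90 min, 7.64 and 7.55 at 120 min and 8.18, 6.26 and 10.6 in asynchronous cells. The 60 min libraries lay above mitosis in CCNA-GFP and overlapped it in CTCF-AID. Eif4e2 had a 60 min log2 fold change of 0.94 in CCNA-GFP and 0.41 in CTCF-AID, and of -0.18 and -0.47 at the same total.

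Eif4b encodes the cofactor of the eIF4A helicase (chromosome 15, 102073773 to 102097173, + strand). In CCNA-GFP, Eif4b stood at 12.4, 12.2 and 13.6 TPM in mitosis, 13 and 13.3 at 20 min, 13.3 and 14.1 at 30 min, 13.9 and 14.1 at 40 min, 19.2 at 50 min, 19.3 and 16.3 at 60 min, 15.6 and 17.8 at 90 min, 14.2 and 16 at 120 min and 10.6, 13.7 and 16 in asynchronous cells. Eif4b stood in CTCF-AID without IAA at 17.7, 15.5 and 18 TPM in mitosis, 18.9 and 16.1 at 20 min, 16.4 and 15.9 at 40 min, 16.8 and 16.1 at 50 min, 15 and 15.6 at 60 min, 11.6 and 13.7 at 90 min, 11 and 12.4 at 120 min and 12.7, 11.2 and 14.1 in asynchronous cells. In CCNA-GFP all libraries from 40 to 120 min lay above mitosis, while in CTCF-AID the 90 min, 120 min and asynchronous libraries lay below every mitotic one. Eif4b differed at 60 min from mitosis by 0.52 (standard error 0.13, limma adjusted p = 0.00115) in CCNA-GFP and by -0.10 (standard error 0.11, limma adjusted p = 0.408) in CTCF-AID, and by -0.76 and -1.04 at the same total. Eif4b was lower than in mitosis in CTCF-AID at 90 min, by -0.45, and at 120 min, by -0.46 (standard error 0.11, limma adjusted p = 0.00250).

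Eif4g3 encodes eIF4GII, a full-length scaffold of eIF4F, and is the longest member at 215.5 kb (chromosome 4, 137993022 to 138208508, + strand). In CCNA-GFP, Eif4g3 stood at 0.836, 1.99 and 0.872 TPM in mitosis, 0.873 and 1.87 at 20 min, 0.858 and 0.799 at 30 min, 0.678 and 1.64 at 40 min, 0.661 at 50 min, 0.533 and 1.2 at 60 min, 0.469 and 0.519 at 90 min, 0.55 and 1.44 at 120 min and 0.754, 2.47 and 1.48 in asynchronous cells. Eif4g3 stood in CTCF-AID without IAA at 2.11, 3.51 and 2.46 TPM in mitosis, 2.36 and 3.3 at 20 min, 1.48 and 2.43 at 40 min, 1.04 and 0.858 at 50 min, 0.877 and 1.66 at 60 min, 0.833 and 0.869 at 90 min, 0.981 and 1.93 at 120 min and 1.71, 2.48 and 2.06 in asynchronous cells. Replicate 2 was the highest library at every stage that has one. Within each replicate number the 60 min library lay below the mitotic one in both lines, and in CTCF-AID no library from 50 to 120 min reached the mitotic range. Eif4g3 differed at 60 min from mitosis by -0.32 (standard error 0.11, limma adjusted p = 0.00750) in CCNA-GFP and by -0.76 (standard error 0.09, limma adjusted p = 1.54e-06) in CTCF-AID, and by -1.01 and -1.41 at the same total. The CCNA-GFP call was lost without replicate 2, at -0.21, and without the replicate block, at -0.24. Eif4g3 was lower than in mitosis at 3 stages in CCNA-GFP and at 6 in CTCF-AID, the largest difference being -0.84 at 90 min in CTCF-AID. Eif4g1, which encodes the main scaffold, was called higher at 40 and 60 min in both lines.

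The 4E-binding proteins hold eIF4E away from eIF4G, and 3 of their 4 genes were higher at 60 min in each line. Of all genes 88.3% were higher there in CCNA-GFP and 84.2% in CTCF-AID. In CCNA-GFP, Eif4ebp1 stood at 5.26, 5.02 and 7.59 TPM in mitosis, 6.15 and 5.45 at 20 min, 7.15 and 8.17 at 30 min, 8.65 and 6.66 at 40 min, 16.2 at 50 min, 17.5 and 11.5 at 60 min, 13.8 and 17.1 at 90 min, 13.3 and 13.2 at 120 min and 7.31, 6.89 and 13.1 in asynchronous cells. Eif4ebp1 stood in CTCF-AID without IAA at 8.66, 8.18 and 12 TPM in mitosis, 11.1 and 8.29 at 20 min, 15.1 and 11.5 at 40 min, 18.6 and 23 at 50 min, 17.4 and 17.2 at 60 min, 12.2 and 18.8 at 90 min, 13.2 and 15.7 at 120 min and 10.4, 8.45 and 17.6 in asynchronous cells. From 50 to 120 min no library of Eif4ebp1 overlapped mitosis in either line. Eif4ebp1 had a 60 min log2 fold change of 1.32 in CCNA-GFP and 1.00 in CTCF-AID, and of 0.09 and 0.07 at the same total. In CCNA-GFP, Eif4ebp2 stood at 2.93, 3.35 and 4.25 TPM in mitosis, 3.7 and 3.3 at 20 min, 4.1 and 4.34 at 30 min, 5.65 and 4.65 at 40 min, 10.1 at 50 min, 10.3 and 7.74 at 60 min, 8.36 and 9.37 at 90 min, 8.22 and 7.48 at 120 min and 4.9, 4.03 and 6.48 in asynchronous cells. Eif4ebp2 stood in CTCF-AID without IAA at 3.07, 2.78 and 4.17 TPM in mitosis, 4.39 and 2.65 at 20 min, 7.94 and 5.64 at 40 min, 9.2 and 11.1 at 50 min, 7.67 and 7.06 at 60 min, 5.24 and 7.21 at 90 min, 5.64 and 5.53 at 120 min and 4.02, 3.08 and 4.66 in asynchronous cells. From 40 to 120 min no library of Eif4ebp2 overlapped mitosis in either line. Eif4ebp2 had a 60 min log2 fold change of 1.25 in CCNA-GFP and 1.09 in CTCF-AID, and of 0.10 and 0.27 at the same total. Reads of Eif4ebp2 cannot be told apart from those of Gm48086, which overlaps it on the same strand.

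Eif4ebp3, the shortest member at 1.858 kb, moved otherwise, and its reads cannot be told apart from those of AC115631.1, which overlaps it on the same strand. In CCNA-GFP, Eif4ebp3 stood at 0.627, 0.797 and 1.41 TPM in mitosis, 1.05 and 0.694 at 20 min, 0.668 and 1.41 at 30 min, 0.936 and 0.671 at 40 min, 0.661 at 50 min, 1.03 and 0.495 at 60 min, 2.16 and 2.76 at 90 min, 1.58 and 1.44 at 120 min and 2.15, 2.33 and 3.52 in asynchronous cells. Eif4ebp3 stood in CTCF-AID without IAA at 1.81, 1.32 and 1.55 TPM in mitosis, 1.46 and 1.31 at 20 min, 1.16 and 1.13 at 40 min, 0.692 and 1.12 at 50 min, 0.765 and 0.779 at 60 min, 1.14 and 2.29 at 90 min, 1.35 and 2.07 at 120 min and 2.6, 2.17 and 4.76 in asynchronous cells. The 60 min libraries overlapped mitosis in CCNA-GFP and lay below all mitotic libraries in CTCF-AID, and the asynchronous libraries lay above mitosis in both lines. Eif4ebp3 differed at 60 min from mitosis by 0.02 (standard error 0.11, limma adjusted p = 0.871) in CCNA-GFP and by -0.38 (standard error 0.16, limma adjusted p = 0.0374) in CTCF-AID, and by -0.63 and -0.94 at the same total. The CTCF-AID call was lost without replicate 1, at -0.20, and without replicate 2, at -0.42. Asynchronous cells were above mitotic cells by 0.92 (standard error 0.10, limma adjusted p = 9.56e-07) in CCNA-GFP and 0.66 (standard error 0.14, limma adjusted p = 0.00306) in CTCF-AID. Of all members, Eif4ebp3 and Eif4g3 were called lower at 60 min than in asynchronous cells in both lines, by -0.90 and -1.05 for Eif4ebp3 and by -0.51 and -0.51 for Eif4g3.

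Eif6 and Eif5b act on the large subunit, and both were higher at 60 min in both lines (88.3% and 84.2% of all genes). Eif6 keeps the large subunit from joining too early (chromosome 2, 155819832 to 155826925, - strand). In CCNA-GFP, Eif6 stood at 1.71, 1.69 and 1.52 TPM in mitosis, 2.06 and 1.61 at 20 min, 2.45 and 1.92 at 30 min, 3.55 and 2.48 at 40 min, 5.45 at 50 min, 9.06 and 6.19 at 60 min, 8.22 and 7.51 at 90 min, 6.24 and 6.76 at 120 min and 3.05, 3.09 and 4.01 in asynchronous cells. Eif6 stood in CTCF-AID without IAA at 2.72, 1.93 and 2.9 TPM in mitosis, 2.95 and 1.94 at 20 min, 5.28 and 3.63 at 40 min, 7.75 and 8.11 at 50 min, 7.71 and 6.84 at 60 min, 5.32 and 5.95 at 90 min, 4.38 and 4.16 at 120 min and 3.14, 1.98 and 2.96 in asynchronous cells. From 40 to 120 min no library overlapped mitosis in either line. Eif6 differed at 60 min from mitosis by 1.69 (standard error 0.14, limma adjusted p = 1.38e-09) in CCNA-GFP and by 1.32 (standard error 0.10, limma adjusted p = 9.95e-08) in CTCF-AID, and by 0.65 and 0.53 at the same total. Eif5b encodes the GTPase of subunit joining (chromosome 1, 37998010 to 38055579, + strand). In CCNA-GFP, Eif5b stood at 1.81, 1.63 and 2.05 TPM in mitosis, 1.85 and 1.74 at 20 min, 2.16 and 2.21 at 30 min, 2.23 and 2.04 at 40 min, 3.28 at 50 min, 5.21 and 3.5 at 60 min, 3.86 and 4.7 at 90 min, 3.49 and 3.66 at 120 min and 2.06, 1.98 and 2.94 in asynchronous cells. Eif5b stood in CTCF-AID without IAA at 3.59, 3.2 and 4.63 TPM in mitosis, 3.89 and 3.23 at 20 min, 4.52 and 3.9 at 40 min, 5.9 and 6.89 at 50 min, 6.39 and 6.4 at 60 min, 3.94 and 6.03 at 90 min, 3.99 and 4.19 at 120 min and 3.16, 2.5 and 4.11 in asynchronous cells. The 50 and 60 min libraries lay above mitosis in both lines, and in CTCF-AID the 120 min libraries lay within the mitotic range. Eif5b had a 60 min log2 fold change of 0.98 in CCNA-GFP and 0.77 in CTCF-AID, and of -0.02 and -0.06 at the same total.

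The 4 genes named as initiation factors but with other main roles were all higher at 40 and 60 min in both lines. Of all genes 49.3% in CCNA-GFP and 62.4% in CTCF-AID were higher at 40 min, and 88.3% and 84.2% at 60 min. Eif1ad encodes a small protein with an eIF1A-like domain (chromosome 19, 5366741 to 5371526, + strand). In CCNA-GFP, Eif1ad stood at 1.74, 1.26 and 2.7 TPM in mitosis, 2.48 and 1.43 at 20 min, 2.64 and 2.93 at 30 min, 4.49 and 2.61 at 40 min, 7.53 at 50 min, 8.64 and 5.2 at 60 min, 7.03 and 8.63 at 90 min, 5.69 and 5.22 at 120 min and 2.81, 2.72 and 3.89 in asynchronous cells. Eif1ad stood in CTCF-AID without IAA at 2.68, 1.15 and 2.04 TPM in mitosis, 3.23 and 1.2 at 20 min, 6.02 and 3.83 at 40 min, 7.93 and 7.23 at 50 min, 7.29 and 6.21 at 60 min, 4.73 and 5.29 at 90 min, 4.49 and 4.47 at 120 min and 2.64, 1.76 and 2.42 in asynchronous cells. From 50 to 120 min no library overlapped mitosis in either line. Eif1ad differed at 60 min from mitosis by 1.59 (standard error 0.14, limma adjusted p = 2.16e-09) in CCNA-GFP and by 1.48 (standard error 0.16, limma adjusted p = 1.21e-06) in CTCF-AID, and by 0.56 and 0.73 at the same total. Eif5a encodes the hypusine-bearing factor that helps elongation (chromosome 11, 69916714 to 69921958, - strand). In CCNA-GFP, Eif5a stood at 6.13, 5.55 and 6.97 TPM in mitosis, 6.92 and 5.34 at 20 min, 7.82 and 7.62 at 30 min, 12.4 and 10.7 at 40 min, 18.5 at 50 min, 17 and 13.8 at 60 min, 12.6 and 14 at 90 min, 10.1 and 11.6 at 120 min and 8.76, 8.55 and 12.5 in asynchronous cells. Eif5a stood in CTCF-AID without IAA at 14.2, 10.8 and 14 TPM in mitosis, 15.2 and 11.7 at 20 min, 21.9 and 20.2 at 40 min, 22.2 and 24.6 at 50 min, 19.3 and 19.7 at 60 min, 11.5 and 15.1 at 90 min, 11.1 and 13.1 at 120 min and 12.2, 11.2 and 19.4 in asynchronous cells. The 40, 50 and 60 min libraries lay above mitosis in both lines, and those at 120 min did so in CCNA-GFP only. Eif5a had a 60 min log2 fold change of 1.27 in CCNA-GFP and 0.68 in CTCF-AID, and of 0.04 and -0.26 at the same total.

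Eif5a2, the close copy of Eif5a, was the lower of the pair in every library on the TPM scale (chromosome 3, 28781276 to 28798846, + strand). In CCNA-GFP, Eif5a2 stood at 0.174, 0.199 and 0.197 TPM in mitosis, 0.314 and 0.174 at 20 min, 0.445 and 0.293 at 30 min, 0.871 and 0.74 at 40 min, 1.3 at 50 min, 2.05 and 1.8 at 60 min, 0.793 and 0.929 at 90 min, 0.661 and 0.845 at 120 min and 0.319, 0.415 and 0.407 in asynchronous cells. Eif5a2 stood in CTCF-AID without IAA at 0.391, 0.268 and 0.388 TPM in mitosis, 0.589 and 0.305 at 20 min, 1.94 and 1.42 at 40 min, 2.56 and 2.65 at 50 min, 2.11 and 2.12 at 60 min, 1.12 and 1.16 at 90 min, 0.958 and 0.755 at 120 min and 0.595, 0.521 and 0.566 in asynchronous cells. From 40 min on all libraries lay above mitosis in both lines. Eif5a2 differed at 60 min from mitosis by 1.30 (standard error 0.08, limma adjusted p = 1.49e-10) in CCNA-GFP and by 1.23 (standard error 0.07, limma adjusted p = 6.12e-08) in CTCF-AID, and by 0.79 and 0.78 at the same total. In CCNA-GFP its asynchronous values lay below 0.5 TPM, the filter of the listing, so it was listed through stages after mitosis. The CCNA-GFP p-value does not allow for that selection. Eif4a3 encodes the helicase of the exon junction complex (chromosome 11, 119288363 to 119300089, - strand). In CCNA-GFP, Eif4a3 stood at 4.91, 3.39 and 5.48 TPM in mitosis, 5.66 and 3.73 at 20 min, 5.75 and 6.28 at 30 min, 6.65 and 4.54 at 40 min, 11.1 at 50 min, 10.7 and 6.43 at 60 min, 7.53 and 9.56 at 90 min, 6.46 and 5.79 at 120 min and 3.42, 3.8 and 6.22 in asynchronous cells. Eif4a3 stood in CTCF-AID without IAA at 8.31, 5.74 and 8.77 TPM in mitosis, 9.26 and 6.33 at 20 min, 11.1 and 9.42 at 40 min, 12.2 and 14.1 at 50 min, 11.7 and 11.5 at 60 min, 7.54 and 10.3 at 90 min, 6.64 and 6.85 at 120 min and 4.83, 4.21 and 7.13 in asynchronous cells. The 60 min libraries lay above mitosis in both lines, and the asynchronous libraries overlapped mitosis. Eif4a3 had a 60 min log2 fold change of 0.91 in CCNA-GFP and 0.71 in CTCF-AID, and of -0.27 and -0.19 at the same total. In asynchronous CTCF-AID cells Eif4a3 was lower than in mitosis, by -0.44 (standard error 0.11, limma adjusted p = 0.00867), a call lost without replicate 1.

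From 60 to 120 min part of the members fell. In CCNA-GFP 8 were lower at 120 min than at 60 min, where 28.5% of all genes were, with a member median of -0.21 against -0.11. In CTCF-AID 34 were lower, where 51.1% of all genes were, with -0.42 against -0.27. The 8 of CCNA-GFP (Eif1ax, Eif1b, Eif2b2, Eif2b4, Eif3b, Eif4g2, Eif5a and Eif5a2) were all among the 34, 23.5% of that list. Among the groups in CTCF-AID, 11 of 13 eIF3 genes and 4 of 5 eIF2B genes were lower. Eif5a2 fell by 0.74 and 0.75. No shares of all genes are given for the following counts, from fits without a replicate or the block. The CCNA-GFP count was 1 without replicate 1, 16 without replicate 2 and 2 without the replicate block, and the CTCF-AID count was 10 without replicate 1 and 14 without the block. Against asynchronous cells 39 members were higher at 60 min in CCNA-GFP, where 67% of all genes were, and 43 in CTCF-AID, where 74.8% were.

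The members lie on 18 chromosomes and span 1.858 to 215.5 kb, with a median of 18.99 kb against 22.56 kb over all listed genes. The log2 fold change at 40 min fell with the span in this description across genes: Spearman's rho was -0.612 over the members and -0.537 over all genes in CCNA-GFP, and -0.584 and -0.587 in CTCF-AID. The 13 members of up to 10 kb had a 40 min median of 0.61 in CCNA-GFP and 0.79 in CTCF-AID. The 7 members over 40 kb (Eif2ak1, Eif2ak4, Eif2b3, Eif3h, Eif4enif1, Eif4g3 and Eif5b) had 0.10 and 0.05. At 60 min rho was -0.485 and -0.556 over the members, against -0.367 and -0.37 over all genes. Eif4ebp3, the shortest, stood apart with 0.07 and -0.11 at 40 min.

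**Figure D4:**
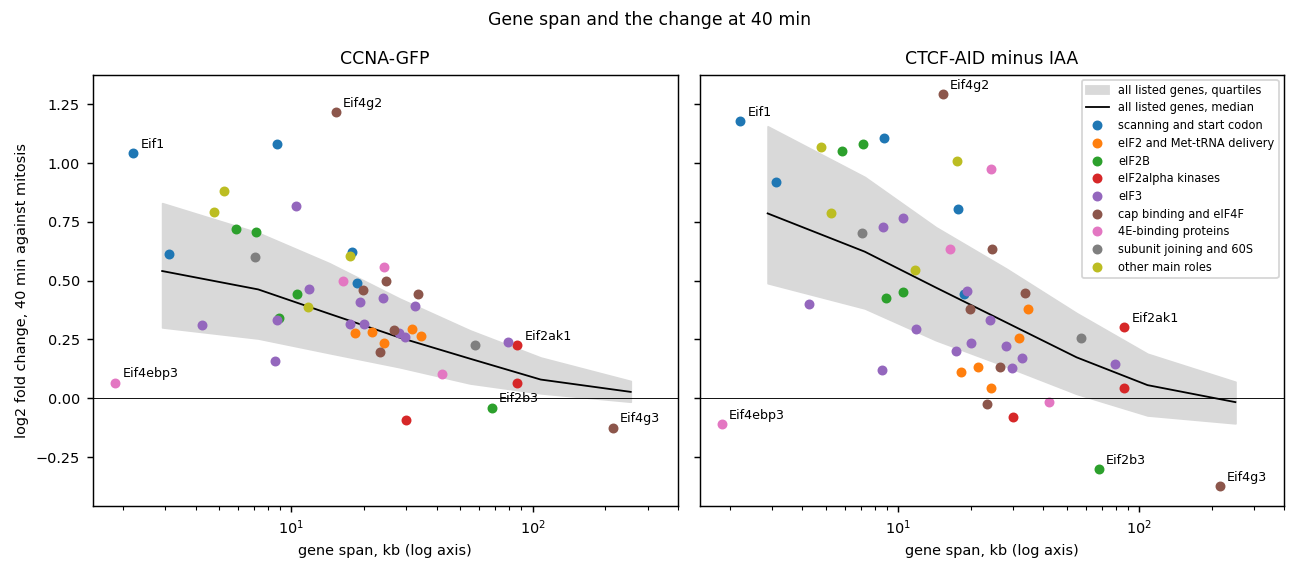
Gene span in kb (x axis, log scale) against log2 fold change from mitosis to 40 min on the log2(TPM + 1) scale (y axis) for the 48 members (points), with the median and quartiles of all listed genes in bins of span (line and band). Members of up to 10 kb have medians of 0.61 and 0.79 and members over 40 kb 0.10 and 0.05 in CCNA-GFP and CTCF-AID.

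Other genes of translation were counted from lists. Of 12 genes of elongation and release 9 were listed in each table, Eef1a1 only for CCNA-GFP and Eef2k only for CTCF-AID. The medians of the lines thus rest on unlike sets of genes. At 60 min 7 were higher in CCNA-GFP (median 1.28), while 6 were higher and 2 lower in CTCF-AID (median 0.37). Of all genes 88.3% were higher at 60 min in CCNA-GFP (median 0.79). In CTCF-AID 84.2% of all genes were higher and 2.36% lower (median 0.64). In CCNA-GFP Eef1a1, which brings aminoacyl-tRNA to the ribosome, had the largest difference at 1.37, followed by the translocase Eef2 at 1.35. Eef1g and Eefsec had the smallest at 0.22 and -0.17, neither called, and those 2 were the lower genes in CTCF-AID, at -0.30 and -0.34. Of 25 gene symbols searched for partners and regulators of initiation 23 were listed. Of these, 21 were higher in CCNA-GFP (median 1.14), while 19 were higher and 2 lower in CTCF-AID (median 0.66). Mknk2, a kinase of eIF4E, rose by 2.20 and 1.96, and Ppp1r15b, which guides the phosphatase of eIF2, by 1.94 and 1.34. Rptor, a subunit of the TOR complex, differed by -0.01, which was not called, and fell by 0.27 in CTCF-AID. Pabpc4, a poly(A)-binding protein, rose by 0.29 in CCNA-GFP and fell by 0.51 in CTCF-AID.

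IAA, which degrades CTCF, was compared with no IAA at each stage in CTCF-AID cells. With IAA 24, 42 and 25 members stood above mitosis at 40, 60 and 120 min, where 55.5%, 80.6% and 64.9% of all genes were. A call for IAA needed an adjusted p of 0.1 (limma, no block) and a log2 fold change beyond 0.2 in size. By that rule 0 of 48 members were called for IAA in asynchronous cells or at 2 or more stages after mitosis, where 1.1% of all genes were. At an unadjusted p of 0.05 there was 1 member at 50 min, 1 at 60 min, 1 at 90 min and 1 in asynchronous cells, where 1.94%, 1.78%, 2.4% and 2.79% of all genes were, and 0 at the other stages. Members other than Eif3g and Eif5b differed by -0.29 to 0.23 over the stages. Over all genes the median difference was -0.061 at 20 min and -0.048 at 40 min, with upper quartiles of -0.024 and -0.0048. Libraries with the same replicate number share deviations, and with that number as a block 1 member was called (Eif3g), where 2.63% of all genes were. With a block for each pair of one stage and number, which was chosen after the data were seen, 2 were called (Eif3g and Eif5b), where 4.6% of all genes were. Eif3g was chosen for its full values after those values were seen.

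Eif3g encodes an RNA-binding subunit of eIF3 (chromosome 9, 20894349 to 20898623, - strand). In CCNA-GFP, Eif3g stood at 0.871, 0.963 and 1.43 TPM in mitosis, 1.43 and 0.955 at 20 min, 1.59 and 1.6 at 30 min, 1.65 and 1.06 at 40 min, 2.93 at 50 min, 3.27 and 2.65 at 60 min, 4.11 and 5.41 at 90 min, 3.63 and 4.07 at 120 min and 2.29, 2.07 and 4.33 in asynchronous cells. Eif3g stood in CTCF-AID without IAA at 1.96, 1.24 and 1.68 TPM in mitosis, 2.01 and 1.24 at 20 min, 2.57 and 1.91 at 40 min, 3.94 and 4.32 at 50 min, 4.43 and 4.31 at 60 min, 3.09 and 4.82 at 90 min, 2.9 and 3.05 at 120 min and 2.62, 2.02 and 3.17 in asynchronous cells. In CTCF-AID with IAA, Eif3g stood at 1.72, 1.1 and 1.37 TPM in mitosis, 1.82 and 1.17 at 20 min, 1.67 and 1.55 at 40 min, 2.87 and 2.85 at 50 min, 2.77 and 2.81 at 60 min, 2.34 and 3.2 at 90 min, 2.03 and 2.51 at 120 min and 1.55, 1.48 and 1.83 in asynchronous cells. It was the lower with IAA in 18 of 18 pairs of libraries of the same stage and replicate number. The share of all genes lower in every pair was not counted, and most genes were lower with IAA at 20 and 40 min. At the same total Eif3g differed by 0.0006 at 20 min. The arms of Eif3g did not overlap at 40, 50, 60 or 120 min or in asynchronous cells. The log2 difference was -0.13 in mitosis, -0.50 at 60 min, with a standard error of 0.18 and a limma adjusted p of 1, and in asynchronous cells -0.45 (standard error 0.15, limma adjusted p = 0.391) without a block. With the replicate block the limma adjusted p was 0.138 at 60 min and 0.0359 in asynchronous cells, and with a block for each pair it was 7.79e-04 and 1.33e-04. At the same total, without a block, Eif3g differed by -0.45 at 60 min (limma adjusted p = 0.0421) and by -0.48 in asynchronous cells (limma adjusted p = 9.79e-04), and both passed the test. The time with IAA differed between the stages, so stage and time with IAA cannot be told apart. The change of Eif3g from mitosis to 60 min with IAA minus that without was -0.37 (limma adjusted p = 1 without a block and 0.139 with a block for each pair), and 0 members were called for such a difference, where 0% of all genes were and 0 members had an unadjusted p under 0.05.

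In CTCF-AID with IAA, Eif5b stood at 3.62, 2.84 and 4.23 TPM in mitosis, 3.2 and 2.81 at 20 min, 3.62 and 3.09 at 40 min, 5.1 and 5.4 at 50 min, 5.06 and 5.47 at 60 min, 3.39 and 4.52 at 90 min, 2.76 and 3.75 at 120 min and 2.54, 2.27 and 3.06 in asynchronous cells. Set against its values without IAA above, it was the lower in 17 of 18 pairs, the exception being replicate 1 in mitosis. Here too the share of all genes was not counted. The log2 difference ran from -0.07 in mitosis to -0.27 at 120 min, and was -0.22 in asynchronous cells (standard error 0.15, limma adjusted p = 1 without a block, 0.566 with the replicate block and 0.0416 with a block for each pair). Eif5b thus passed the test only in the fits with a block for each pair, at 90 min, 120 min and in asynchronous cells, and at the same total in asynchronous cells.

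**Figure D5:**
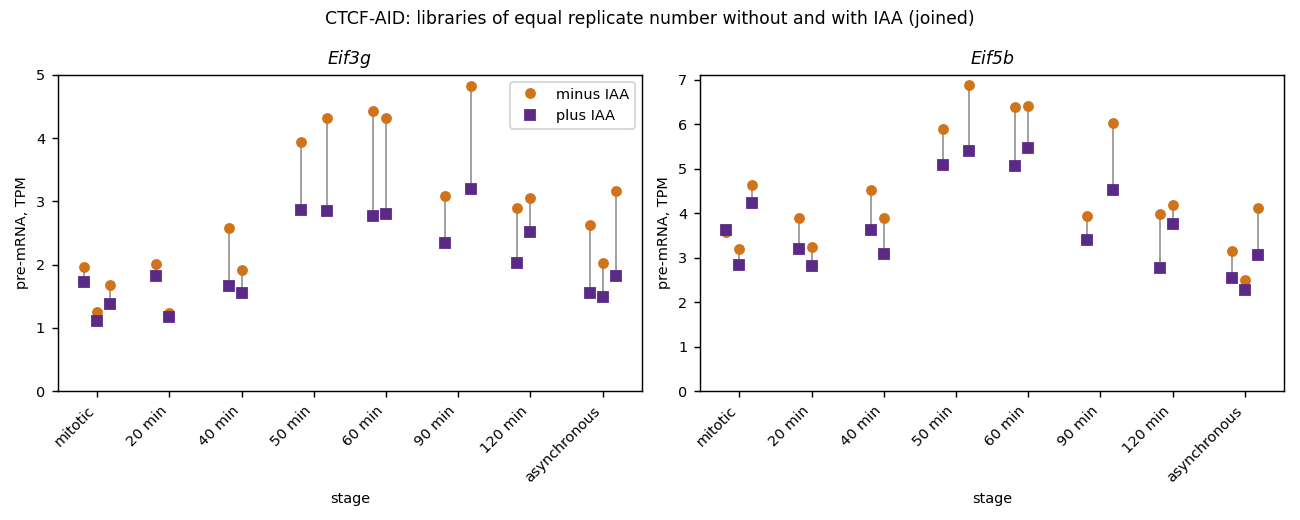
Pre-mRNA TPM of Eif3g and Eif5b (y axes, each from 0) in every CTCF-AID library without and with IAA by stage, pairs of the same replicate number joined. Eif3g is lower with IAA in 18 of 18 pairs and Eif5b in 17 of 18. The share of all genes with so many lower pairs was not counted.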

How the data were processed

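According to the methods, the authors removed rRNA, made stranded libraries, sequenced both ends, and used STAR (mm10) and RSEM (Gencode vM12 plus a pre-mRNA isoform of every gene). The tool versions are not given in the sources used here. The authors deposited the TPM of that isoform, kept at a mean above 0.5 TPM in asynchronous cells or at least 2 post-mitotic samples. All values of a library are whole multiples of a step (0.0217 to 0.0381 TPM in CCNA-GFP and 0.0184 to 0.0280 TPM in CTCF-AID), whose factor no source names, and TPM hold no counts. Headers of the asynchronous CTCF-AID libraries are garbled and were read through the sample titles. No column was left unused.

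Differences were tested with limma 3.58.1 in R 4.3.3 (a linear model per gene, with the trended variance prior of eBayes) on log2(TPM + 1) over all listed genes, with Benjamini-Hochberg adjustment within each comparison. Stages were compared within a line and arm with the replicate number as a block, with a threshold of 0.05 on the adjusted p. The IAA arms were compared with no block, with thresholds of 0.1 on the adjusted p and 0.2 on the size of the log2 fold change. Whether equal replicate numbers pair libraries was checked on deviations from the stage mean: they correlated above 0.1 in 20 of 20 pairs of stages in each of the 3 sets (lowest r 0.130, 0.167 and 0.134), and between the arms in 8 of 8 stages (lowest r 0.513). No library was a copy of another, with Spearman's rho of 0.918 to 0.984 among replicates. The fits were tested on simulated data.

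The members and lists, role groups and alternatives were chosen with earlier results of these data known. Full values are given for the members with the largest and the smallest mean 60 min fold change of each role group, those lower than in mitosis at 2 or more stages of a line, those called for IAA, and 5 sets of paralogs. Eif3g was added after its values were seen. The alternatives were another pseudocount (0.1), a minimum mean of 1 TPM, and the same summed TPM in every library. Others were division by the factor (the step over 0.01), the replicate block or none, and leaving out each replicate. Gencode vM21 (GRCm38, which is mm10) gave the positions. Tables and plots were made with pandas 2.3.3, scipy 1.17.1, numpy 2.4.6 and matplotlib 3.10.9 in Python 3.11.15.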

Additional observations from a re-analysis of the deposited data

How the results depend on the processing

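Of 170 alternatives to a count of members, 134 stayed within 1.5 times the reported count, and of 426 alternatives to a named gene's 60 min change, 381 kept its direction and its side of the threshold, 20 lost the call, 3 gained one and 22 turned. The cause was not tested in any case.

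With the same total in every library 12 members were higher and 14 lower than in mitosis at 90 min in CCNA-GFP (31.8% and 26.2% of all genes), 10 and 13 at 120 min (28.7% and 23.5%) and 11 and 14 in asynchronous cells (24.8% and 20.3%), beside 11 against 18 at 40 min and 13 against 16 at 60 min. In CTCF-AID 14 rose against 26 that fell at 50 min (39.2% and 32.1%), 9 against 25 at 90 min (31.6% and 23.1%) and 10 against 25 at 120 min (29.3% and 23.8%), beside 13 against 25 at 40 min and 15 against 24 at 60 min. With IAA 14 were higher and 28 lower at 60 min (39.6% and 32.2%). In CTCF-AID 15 were lower at 120 than at 60 min (23.7%). At 60 min 20 in CCNA-GFP and 17 in CTCF-AID were higher than in asynchronous cells (35% and 35.9%). For IAA 2 were called (Eif3g and Eif5b), both lower in asynchronous cells, where 59 of all 10237 genes were higher and 133 lower. All 22 changes of direction were at the same total. In CCNA-GFP the 60 min values became -0.064 for Eif1a, -0.57 for Eif2b3, -0.13 for Eif2d, -0.33 for Eif2s3x, -0.40 for Eif2s3y, -0.32 for Eif3f, -0.27 for Eif4a3, -0.76 for Eif4b, -0.18 for Eif4e2, -0.63 for Eif4ebp3 and -0.019 for Eif5b. In CTCF-AID they became -0.31 for Eif1a, -0.41 for Eif2ak2, -0.048 for Eif2d, -0.62 for Eif2s3x, -0.37 for Eif2s3y, -0.29 for Eif3f, -0.19 for Eif4a3, -0.21 for Eif4e, -0.47 for Eif4e2, -0.26 for Eif5a and -0.061 for Eif5b. Dividing each library by its factor gave 41 higher at 40 min (58.7% of all genes), 4 lower at 120 than at 60 min (13.8%) and 23 higher at 60 min than in asynchronous cells (41.5%) in CCNA-GFP, and 30 higher in asynchronous than in mitotic CTCF-AID cells (62.7%).

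Equal replicate numbers pair the libraries. Shares of all genes are not given for the stage counts below, from fits without the block or without a replicate. Those counts do not tell whether the members moved apart from the other genes. Without the replicate block 11 members were higher at 40 min and 2 lower at 120 than at 60 min in CCNA-GFP, and 14 and 11 were higher at 40 and 120 min, 1 was in asynchronous cells and 14 were lower at 120 than at 60 min in CTCF-AID. With the replicate block 1 member was called for IAA, and with a block within stage, added after the data were seen, 2 were. Leaving out each replicate in turn gave 12 to 24 members at 40 min in CCNA-GFP and 18 to 26 in CTCF-AID, 14 to 25 and 16 to 24 at 90 and 120 min and 0 to 6 in asynchronous CTCF-AID cells, and 1 to 16 lower at 120 than at 60 min in CCNA-GFP and 10 to 31 in CTCF-AID. A pseudocount of 0.1 and a minimum of 1 TPM moved no count by over 1.5 times. The depth of the libraries is unknown, so the counting error of low members such as Eif1b, Eif2ak2 and Eif5a2 cannot be given.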
